A study of Mus musculus with 12 samples.

Results

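Solute carriers of the cell membrane and of organelle membranes were examined in the blood transcriptome of aged mice given *A. muciniphila* and of control mice. Members were the genes of the deposited blood table whose symbol starts with Slc and a digit, without the mitochondrial Slc25a family and without Slc4a1, Slc44a1 and Slc10a4. The rule found 117 of the 8003 genes in the table. It works on symbols alone, but it was set with earlier results of these data known. It also took in a few genes that carry the name but are not carriers, among them the scaffold Slc9a3r1, the opposite-strand gene Slc7a6os and the adaptor Slc4a1ap.

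Each of 6 mice gave 1 blood library, 3 from controls (Ctrl 1 to Ctrl 3) and 3 from treated animals (Akk 1 to Akk 3). All were C57BL/6 mice with a labelled age of 15 months, and 12 libraries in all covered blood and hippocampus of these mice. The descriptions of the treatment differ: the labels name a membrane protein of the bacterium for 6 or 8 weeks and call the control Normal, whereas the study's methods describe gavage with the living bacterium for months after antibiotics, against vehicle. The methods also state that the RNA came from mice in which the bacterium had not successfully colonized the gut, which limits what the Akk group stands for. The comparison asks which carriers differ between treated and control blood.

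Solute carriers are membrane proteins that move small molecules across a lipid bilayer, either down a gradient or coupled to an ion that runs down its own gradient. Blood cells use them to take up glucose and amino acids, to export lactate, to withdraw iron from phagocytosed material, to set cell volume and, in platelets, to load serotonin. A family number groups genes by sequence, so members of 1 family mostly share a class of substrate.

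The 117 members were grouped by the substrate of their family into 8 sugar carriers, 18 amino acid and peptide carriers, 3 monocarboxylate carriers, 21 metal carriers, 22 inorganic ion carriers and 45 further genes, which carry nucleosides, nucleotide sugars, vitamins, lipids, monoamines and organic ions. Values are FPKM, fragment counts scaled for transcript length and for the mapped total of each library, so levels can be set side by side between genes. Differences are given as log2 of FPKM + 0.1, Akk minus Ctrl, a scale that understates the change of genes at low FPKM.

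Upstream sequences are shown for 4 carriers on which the results below turn: Slc43a1 and Slc22a4, the only members whose highest value was not in Ctrl 1, and Slc6a4 and Slc18a2, the serotonin pair of platelets. All are on GRCm38.p6, credited to RefSeq, lie upstream of an annotated transcript start, and are written 5′ to 3′ on the strand of the gene. Capitals mark CACGTG, the core E-box, or AGATAA read on either strand (TTATCT on the other), a GATA motif. The windows of Slc43a1 and Slc22a4 lie inside the spans of these genes, before an inner start. For Slc43a1 only 30 bases of the window are printed, because an exon of the same gene lies over it.
Slc43a1, chr2:84840247-84840276, plus strand: agggtctccctcCACGTGgcagccgtggga
Slc22a4, chr11:54028105-54028354, minus strand: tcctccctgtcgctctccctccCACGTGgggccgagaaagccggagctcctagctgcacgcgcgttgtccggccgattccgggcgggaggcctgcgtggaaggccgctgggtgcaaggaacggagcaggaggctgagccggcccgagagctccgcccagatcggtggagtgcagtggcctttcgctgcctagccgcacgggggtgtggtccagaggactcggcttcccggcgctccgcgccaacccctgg
Slc6a4, chr11:76998347-76998596, plus strand: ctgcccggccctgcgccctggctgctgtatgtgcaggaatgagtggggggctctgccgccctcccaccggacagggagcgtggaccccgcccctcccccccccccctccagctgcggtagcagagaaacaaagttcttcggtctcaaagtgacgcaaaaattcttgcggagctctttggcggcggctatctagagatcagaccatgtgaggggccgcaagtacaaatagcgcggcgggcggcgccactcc
Slc18a2, chr19:59260628-59260877, plus strand: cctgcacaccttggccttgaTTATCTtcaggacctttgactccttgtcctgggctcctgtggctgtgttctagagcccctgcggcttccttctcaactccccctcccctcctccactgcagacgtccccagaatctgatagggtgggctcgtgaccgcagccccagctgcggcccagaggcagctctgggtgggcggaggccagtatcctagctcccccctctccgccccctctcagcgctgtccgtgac

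Of the 117 members, 94 had an entry in the table of RefSeq promoters used here, with 126 windows of 250 bases before a start. CACGTG lay in 19 of these windows (15.1%), against 8.51% of the 8202 windows of the blood table and 6.02% of all 32851 windows. AGATAA lay in 9.52% of the members' windows, against 6.29% of the blood table and 9.99% of all. The CACGTG of Slc43a1 began 64 bases before the start and that of Slc22a4 began 228 bases before it. Neither motif was found in the window of Slc6a4. Both motifs were chosen after the values had been seen, and a match is only a match of letters.

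The libraries differed in level before any carrier was considered. Over the blood table the FPKM summed to 70846 in Ctrl 1, to 19551 in Ctrl 2 and to between 10311 and 11427 in Ctrl 3 and the 3 Akk libraries. The table holds genes that the study called different between the groups, and 99.5% of them had a lower mean in Akk, so a lower mean in Akk was built into the choice of genes and is no finding about the carriers. The libraries are labelled as blood, and the table held all 10 neutrophil, all 5 monocyte and all 5 platelet markers examined. It also held 2 of 5 T cell and 1 of 4 B cell markers. None of the markers it held was at 0 in any library. None of the 10 red cell markers was among its genes. A marker missing from the table may only be one that was not called different. In bulk RNA, fewer cells of a type and less RNA per cell cannot be told apart.

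The carriers followed that pattern of the libraries closely. Their summed FPKM was 347.22 in Ctrl 1, 69.74 in Ctrl 2, 48.64 in Ctrl 3, 46.96 in Akk 1, 40.8 in Akk 2 and 41.8 in Akk 3. Ctrl 1 thus stood far above the other libraries, and the lowest control lay close to the highest Akk library. The median carrier had 0.91 FPKM in Ctrl 1, against 0.14 to 0.22 in Ctrl 2 and 3 and 0.10 to 0.19 in Akk. Ctrl 1 held 54 carriers at 1 FPKM or more, whereas each other library held 8 to 13. No carrier was listed at 0 in Ctrl 1, 2 to 4 were in Ctrl 2 and 3, and 8 or 9 were in each Akk library.

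**Figure D1:**
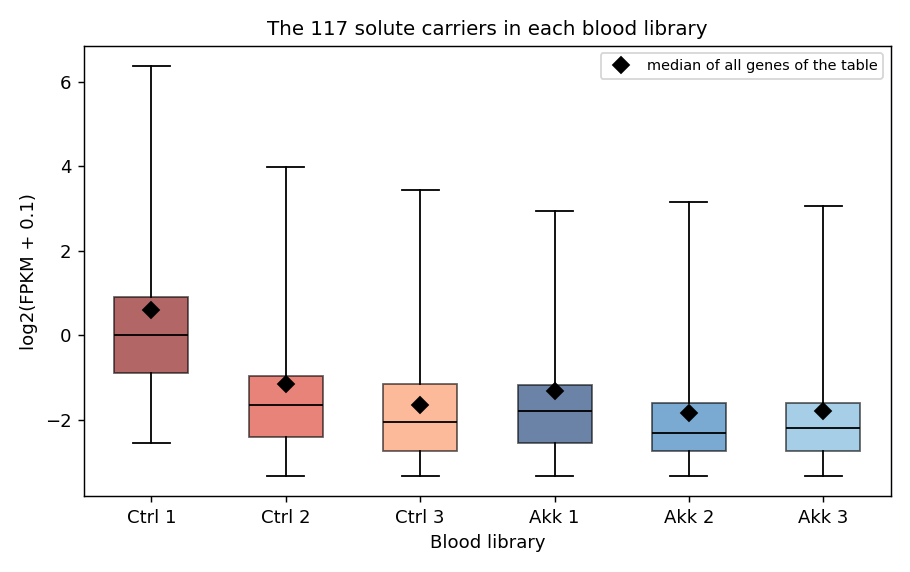
Level of the 117 carriers in each blood library, as log2(FPKM + 0.1). Boxes span the quartiles with the median as a line, whiskers reach the lowest and highest carrier, and diamonds give the median of the 8003 genes of the table. The box of Ctrl 1 sits above the other 5, and in every library the carriers' median lies 0.40 to 0.58 below that of the table.

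The highest value was in Ctrl 1 for 115 of the 117 carriers (98.3%), close to the 98.2% of the whole table. The exceptions were Slc43a1, highest in Ctrl 2, and Slc22a4, highest in Ctrl 3. Against the mean of Ctrl 2 and 3, the median carrier was 1.84 higher in Ctrl 1 on the log2 scale and only 0.17 lower in Akk, a log2 difference of -0.17. In that comparison 86 carriers had a lower mean in Akk and 31 a higher one.

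All 117 carriers had a lower mean in Akk when Ctrl 1 was kept, with log2 differences from -1.87 to -0.22 and a median of -0.80, beside a median of -0.87 over the table. No carrier passed the thresholds of limma (adjusted p no higher than 0.05 together with a 1.5-fold difference or more) in either direction, and the same was true of the whole table, where the called share was 0% in each direction. The lowest adjusted p of limma was 0.487, for carriers and table alike. At an unadjusted p under 0.05 there were 5 carriers (4.27%), against 3.45% of the table, namely Slc43a1, Slc18a2, Slc22a23, Slc30a6 and Slc52a3.

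In 23 carriers (19.7%) all Akk values lay below all Ctrl values, against 15.4% of the table. None had all Akk values above all Ctrl values, which 0.175% of the table did. With Ctrl 1 left out, 23 carriers had no overlap on the lower side, against 15.6% of the table, and 1, the zinc importer Slc39a10, had none on the higher side, against 0.962% of the table. When each library was centred on its own median over the table, 5 carriers (4.27%) remained without overlap on the lower side, against 4.44%, and 10 (8.55%) stood without overlap on the higher side, against 4.01%. Centring moved the median of the table from -0.87 to 0.04 and that of the carriers to 0.11, with 44 carriers below 0 and 73 above.

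**Figure D2:**
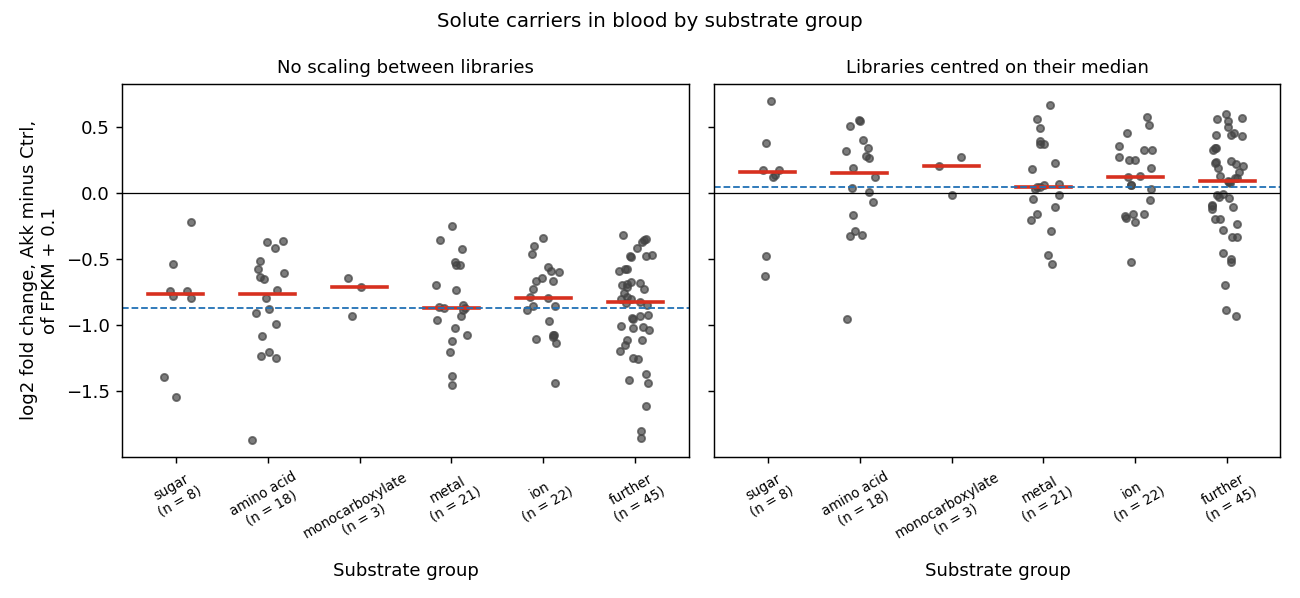
Log2 fold change, Akk minus Ctrl, of FPKM + 0.1 for each carrier by substrate group, without scaling (left) and with each library centred on its median (right). Points are carriers, red lines the group medians and dashed blue lines the median of the table. On the left all 117 points lie below 0 and on the right they lie on both sides of it.

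The sugar carriers were led by Slc2a3 (Entrez 20527, chr 6, 122727809 to 122802363), the high-affinity glucose transporter GLUT3 of platelets, leukocytes and neurons, and the most abundant carrier of the 117. Its FPKM was 81.91, 15.60 and 10.72 in Ctrl 1 to 3 and 7.58, 8.77 and 8.16 in Akk 1 to 3. As deposited the Akk values lay close together and below each control. After centring they were still below each control. The log2 difference was -1.54 (SE 0.96, limma adjusted p = 0.487, n = 3 per group), -0.63 after centring and -0.66 without Ctrl 1, and the mean of Ctrl 2 and 3 was 1.61 times the Akk mean.

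Slc2a6, a hexose transporter of lysosomes in leukocytes, differed from it. Its FPKM was 4.86, 0.96 and 0.70 in Ctrl and 0.80, 0.76 and 0.94 in Akk, so that only Ctrl 1 stood apart. Its log2 difference of -0.80 turned to 0.12 after centring. Slc45a4, a member of a family of proton-coupled sugar carriers, gave 2.56, 0.41 and 0.29 in Ctrl against 0.17, 0.22 and 0.24 in Akk, without overlap and with a log2 difference of -1.39. Without Ctrl 1 that difference was -0.53, and after centring it was -0.48 with overlapping groups. Slc2a9, a urate transporter within the glucose family that was picked once its values were known, differed by -0.22 on the log2 scale, or 0.70 after centring, with 1.11, 0.25 and 0.09 in Ctrl and 0.28, 0.32 and 0.22 in Akk.

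Sugar carriers numbered 8, of which 2 had no overlap (15.4% of the table) and none had an unadjusted p under 0.05 (3.45% of the table). Their median log2 difference was -0.76, or 0.15 after centring. Of 18 listed genes of glucose use, from hexokinase to lactate dehydrogenase and the pentose phosphate entry, 17 were in the table, and none passed the test. All had negative log2 differences, beside 99.5% of the table with a lower mean in Akk. Their median was -1.14, or -0.23 after centring, and 4 of the 17 had no overlap, against 15.4% of the table. Hk1, the hexokinase that traps glucose behind GLUT3, read 30.99, 5.33 and 4.24 in Ctrl and 3.08, 3.76 and 3.62 in Akk. It had no overlap, whereas the hexokinases Hk2 and Hk3 overlapped.

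Among the amino acid carriers Slc43a1 (Entrez 72401, chr 2, 84838855 to 84863586) had the largest log2 difference of all 117 at a pseudocount of 0.1 with all libraries. With a pseudocount of 0.01 or 1, or with Ctrl 2, Ctrl 3, Akk 1 or Akk 3 left out, another carrier had the largest. It encodes LAT3, which lets large neutral amino acids such as leucine and phenylalanine pass without sodium. Its FPKM was 2.32, 2.82 and 2.59 in Ctrl and 0.54, 1.01 and 0.45 in Akk. As deposited, without scaling between libraries, the controls lay within a narrow range, Ctrl 1 was the lowest of them, and no Akk value reached them. The means were 2.58 ± 0.25 (SD, n = 3) and 0.667 ± 0.301 (SD, n = 3), a ratio of 3.87, and the log2 difference was -1.87 (SE 0.92, limma adjusted p = 0.487). After centring Ctrl 1 lay below Akk 2 and Akk 3, so the controls were no longer close together and the groups overlapped. The log2 difference was then -0.95. Without Ctrl 1 the log2 difference was -1.94, and with centring as well it was -1.69 (limma adjusted p = 0.180). Over all fits the adjusted p of limma for Slc43a1 ran from 0.180 to 0.934, so the difference did not pass the threshold in any of them.

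The family has 2 further genes in the table. Slc43a3 (Entrez 58207), an equilibrative carrier of purine nucleobases that stands in the further group, lies 72958 bp from Slc43a1 on chr 2, at 84936545 to 84958509. Its FPKM was 2.10, 1.01 and 0.70 in Ctrl and 0.41, 0.38 and 0.18 in Akk, without overlap, and its log2 difference was -1.61 (SE 0.92, limma adjusted p = 0.487), -0.70 after centring and -1.20 without Ctrl 1. Slc43a2 (Entrez 215113, chr 11, 75529915 to 75577575), the related leucine carrier LAT4, was chosen after its values were seen. It read 1.59, 0.33 and 0.35 in Ctrl and 0.19, 0.19 and 0.20 in Akk. Unlike Slc43a1, both were highest in Ctrl 1. All 3 genes of the family were without overlap as deposited, beside 15.4% of the table, and all 3 overlapped after centring. The family's median was -0.70 after centring and -0.95 when Ctrl 1 was left out as well.

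**Figure D3:**
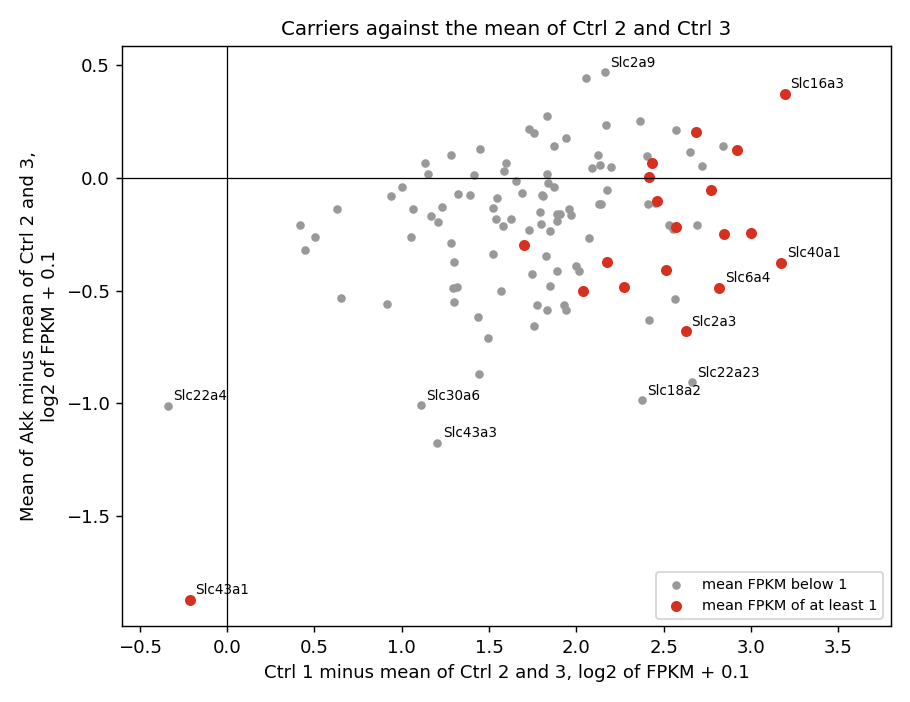
Each carrier by its level in Ctrl 1 (horizontal) and its mean in Akk (vertical), both as log2 differences of FPKM + 0.1 from the mean of Ctrl 2 and 3. Red points have a mean FPKM of at least 1. Slc43a1 and Slc22a4 lie left of the vertical line, and the other 115 carriers lie right of it, with 86 points below the horizontal line and 31 above.

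Slc38a10, a member of the sodium-coupled neutral amino acid family, was the most abundant amino acid carrier, with 10.52, 2.74 and 1.46 in Ctrl and 1.51, 1.57 and 1.34 in Akk. Slc15a3, a lysosomal peptide and histidine carrier of phagocytes, read 5.68, 0.78 and 0.63 against 0.59, 0.36 and 0.78, and 28.1% of its exonic bases are shared with Tmem132a on the opposite strand. Slc6a6, the taurine transporter, read 5.24, 0.62 and 0.59 against 0.82, 0.49 and 0.69. In all 3 the Akk range touched or crossed that of Ctrl 2 and 3, and for Slc6a6 the log2 difference of -0.88 turned to 0.10 without Ctrl 1.

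Over the 18 amino acid carriers the median log2 difference was -0.76, or 0.15 after centring, and 3 had no overlap, against 15.4% of the table. The Slc7 carriers Slc7a1, a cationic amino acid transporter, and Slc7a6, Slc7a7 and Slc7a8, light chains of heteromeric amino acid transporters, were chosen after their values were seen. Their log2 differences ran from -0.79 to -0.52 as deposited and from 0.12 to 0.40 after centring. In all of them the groups overlapped with and without centring, at low mean levels of 0.098 to 0.36 FPKM. Of 17 listed genes of amino acid supply and its sensing at the lysosome, 9 were in the table, and none passed the test. All were negative with a median of -1.03, or -0.11 after centring, and 2 had no overlap, against 15.4% of the table. Rragc, a GTPase that recruits mTORC1 to lysosomes, read 3.75, 0.54 and 0.55 in Ctrl and 0.47, 0.28 and 0.44 in Akk.

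Monocarboxylate carriers numbered 3. Slc16a3 (Entrez 80879), the lactate exporter MCT4 of glycolytic cells, read 14.20, 1.66 and 1.26 in Ctrl and 1.55, 1.71 and 2.50 in Akk. Ctrl 1 was 9.73 times the mean of Ctrl 2 and 3, whereas Akk 2 and Akk 3 lay above both of these controls. The log2 difference was -0.71 with Ctrl 1 and 0.36 without it. No monocarboxylate carrier was without overlap, against 15.4% of the table, and the group median of -0.71 became 0.20 after centring. Of 4 listed partners, 3 were in the table with a median of -0.83, or 0.083 after centring. Among them Emb, a chaperone of these carriers, read 15.39, 2.88 and 1.69 in Ctrl and 2.76, 1.78 and 2.07 in Akk.

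Metal carriers were 21, of which 5 had no overlap (15.4% of the table) and 1 had an unadjusted p under 0.05 (3.45% of the table). Slc40a1, ferroportin, the only known iron exporter of animal cells, read 9.74, 1.17 and 0.81 in Ctrl and 0.65, 0.58 and 0.99 in Akk, and its highest Akk value lay above Ctrl 3. Slc11a1, NRAMP1, which withdraws iron and manganese from the phagosome of macrophages and neutrophils, read 9.04, 1.51 and 1.37 in Ctrl and 1.26, 1.14 and 1.27 in Akk. Slc11a1 had no overlap, but with Ctrl 1 left out its log2 difference shrank from -1.08 to -0.22. The log2 difference of Slc40a1 was -1.45, or -0.39 without Ctrl 1, and the mean of Ctrl 2 and 3 was 1.34 times its Akk mean.

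Slc30a6 (Entrez 210148), a zinc transporter of the Golgi, had the lowest unadjusted p of the carriers at a very low level. It read 0.45, 0.14 and 0.17 in Ctrl and 0.04, 0.02 and 0.02 in Akk. There was no overlap, Ctrl 2 and 3 averaged 5.81 times the Akk mean, and the log2 difference was -1.38 (SE 0.59, limma adjusted p = 0.487), or -0.47 after centring, where the groups overlapped. Slc31a2, a copper carrier chosen after its values were seen, was likewise without overlap, with 0.93, 0.32 and 0.21 in Ctrl and 0.15, 0.10 and 0.12 in Akk. At 2 decimals the Akk values of Slc30a6 are a few steps of rounding above 0, and the depth behind them is unknown.

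The zinc importers of the Slc39 family numbered 10, with a median log2 difference of -0.80, or 0.12 after centring. Slc39a4, which takes up dietary zinc in the gut, read 3.44, 1.28 and 0.70 in Ctrl and 0.57, 1.01 and 0.78 in Akk. Slc39a1, a zinc importer of the plasma membrane, read 3.45, 0.73 and 0.36 against 0.73, 0.35 and 0.42, and Slc39a7, which releases zinc from the endoplasmic reticulum, read 3.49, 0.75 and 0.38 against 0.81, 0.46 and 0.52. In each of these 3 genes the Akk range crossed that of Ctrl 2 and 3, and 80.7% of the exonic bases of Slc39a7 are shared with Gm20427 on the same strand, so its value is uncertain.

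Slc39a4 was also the 1 carrier that the hippocampal table shared with blood. There it read 3.24, 0.62 and 0.89 in Ctrl and 1.43, 2.28 and 0.86 in Akk, with overlapping groups and means of 1.58 ± 1.44 (SD, n = 3) and 1.52 ± 0.71 (SD, n = 3). In both tissues Ctrl 1 had the highest value, and the tables were normalized separately.

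Of 17 listed genes of metal handling 11 were in the table, all negative with a median of -1.22, or -0.30 after centring. One of them, Ltf, the iron-binding lactoferrin of neutrophil granules, had an unadjusted p under 0.05, with 3.50, 1.41 and 3.94 in Ctrl and 0.17, 0.42 and 0.94 in Akk. Like Slc43a1 it was not highest in Ctrl 1. Hmox1, which frees iron from haem, read 9.61, 1.30 and 1.46 in Ctrl and 0.95, 0.68 and 0.87 in Akk. The 10 neutrophil markers, Ltf among them, summed to 279.92 to 1415.4 FPKM in Ctrl and 144.77 to 369.36 in Akk, and the 5 monocyte markers to 12.78 to 228.44 and 6.26 to 15.83. Over genes, the neutrophil markers had a median log2 difference of -1.62 (-0.70 after centring). Of the 10, 5 were without overlap, against 15.4% of the table. At an unadjusted limma p under 0.05 were 3 (Ngp, Camp and Ltf), against 3.45% of the table. The monocyte markers had a median of -1.68 (-0.77 after centring) and none without overlap. Both medians lay below that of the carriers, -0.80. Many markers stood at far higher FPKM than most carriers, and the scale understates change at low FPKM. Carriers with a mean FPKM of at least 1 had a median of -1.09. The part of these cells in the values of Slc11a1 and Slc40a1 was not tested.

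The 22 ion carriers had a median log2 difference of -0.79, or 0.12 after centring, and 4 had no overlap, against 15.4% of the table. Slc24a3, which exchanges sodium for calcium and potassium, was the most abundant, with 12.14, 2.04 and 1.35 in Ctrl and 1.42, 1.62 and 1.85 in Akk. Slc9a3r1, a scaffold that anchors transporters at the membrane, read 8.05, 2.11 and 1.30 in Ctrl and 1.53, 1.04 and 1.31 in Akk. All Akk values of Slc24a3 fell within the span of Ctrl 2 and 3, as did Akk 1 and Akk 3 of Slc9a3r1.

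The Slc12 family holds cation-chloride cotransporters, which set cell volume and chloride. Slc12a9, an orphan member chosen after its values were seen, read 1.69, 0.28 and 0.19 in Ctrl and 0.14, 0.08 and 0.13 in Akk. It had no overlap with or without centring, and its log2 difference was -1.44, or -0.63 without Ctrl 1. Slc12a2, the sodium-potassium-chloride importer NKCC1, also chosen after its values were seen, read 1.13, 0.30 and 0.41 against 0.29, 0.11 and 0.19, without overlap by 1 step of rounding. Slc12a3 was listed at 0 in the 3 Akk libraries, as were Slc26a8, Slc39a8 and Slc46a1.

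Of 15 listed ion pumps and regulators, 10 were in the table, with a median of -1.12, or -0.20 after centring, and none passed the test. In 5 of the 10 the groups did not overlap as deposited, beside 15.4% of the table. Wnk1 and Stk39, kinases that control the Slc12 cotransporters, were among those without overlap. Oxsr1, of the same list, overlapped, with 1.13, 0.30 and 0.16 in Ctrl and 0.31, 0.18 and 0.12 in Akk. After centring the log2 difference was -0.22 for Wnk1, 0.17 for Stk39 and 0.13 for Oxsr1.

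**Figure D4:**
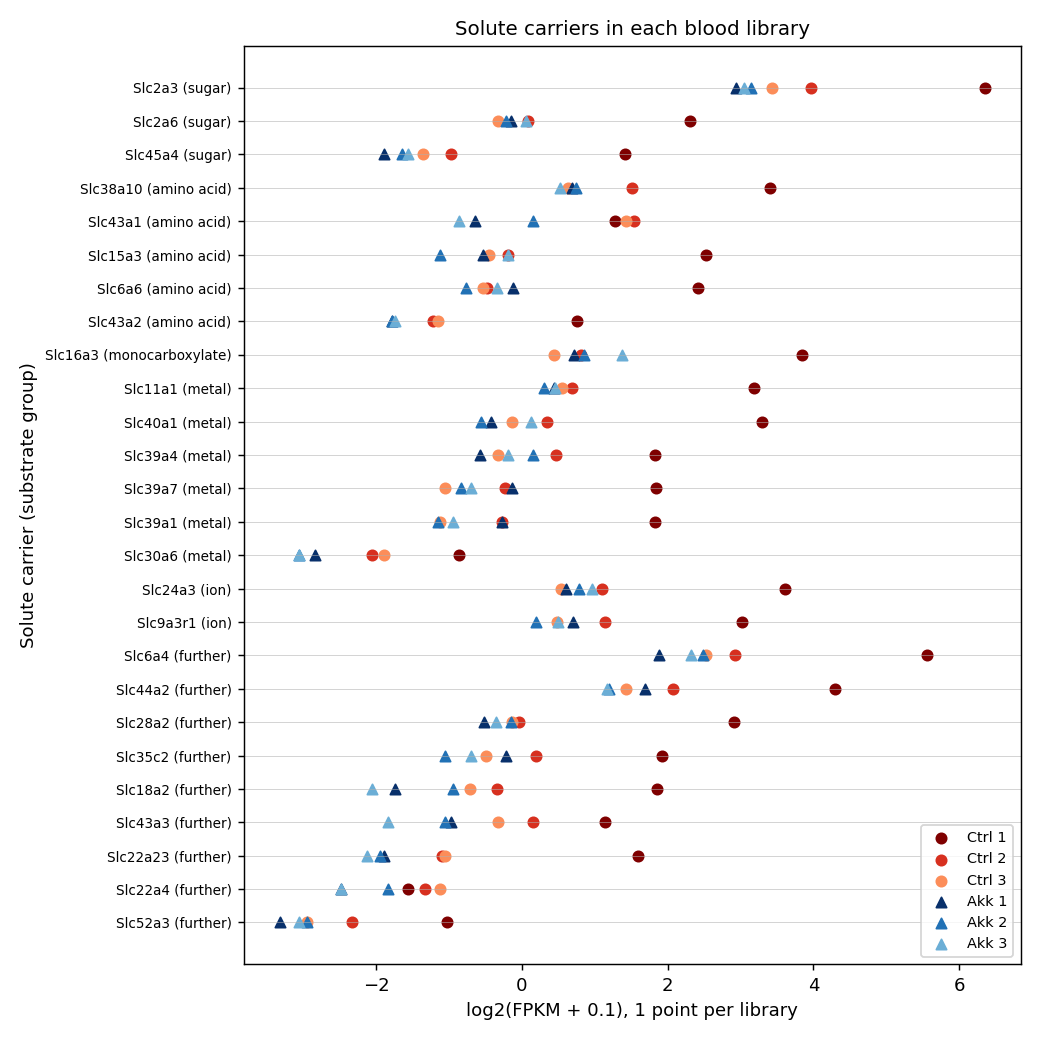
Level of 24 carriers named by rule, and of Slc22a4 and Slc43a2, in each blood library as log2(FPKM + 0.1), 1 point per library, ordered by substrate group and level. Circles are Ctrl and triangles Akk. The darkest circle, Ctrl 1, lies to the right of all other points in each row but those of Slc43a1 and Slc22a4.

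The further group held the serotonin carriers of platelets. Slc6a4 (Entrez 15567), SERT, which takes serotonin up from plasma, was the second carrier by level, with 46.96, 7.49 and 5.64 in Ctrl and 3.60, 5.49 and 4.88 in Akk. Slc18a2 (Entrez 214084), VMAT2, which packs serotonin into dense granules, read 3.53, 0.69 and 0.51 in Ctrl and 0.20, 0.42 and 0.14 in Akk. Both had no overlap, although Akk 2 of Slc6a4 came close to Ctrl 3. The log2 difference was -1.44 (SE 0.94) for Slc6a4 and -1.85 (SE 0.92) for Slc18a2, both with a limma adjusted p of 0.487. Without Ctrl 1 it was -0.49 for Slc6a4 and -1.05 for Slc18a2. After centring it was -0.52 and -0.93, and the groups overlapped in both genes.

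The levels of platelet markers overlapped between the groups. The 5 markers summed to 297.54 to 2980.56 FPKM in Ctrl and 380.77 to 481.4 in Akk, so the lowest control lay below all 3 Akk libraries. Over genes, all 5 had negative log2 differences, with a median of -1.12 (-0.20 after centring), beside -0.87 over the table. None was without overlap. Pf4, with the smallest difference of the 5 (-0.75), read 520.88, 197.54 and 91.24 in Ctrl and 114.4, 122.59 and 139.3 in Akk. The part of platelets in the values of Slc6a4 and Slc18a2 was not tested.

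Organic ion carriers of the Slc22 family numbered 4. Slc22a23 (Entrez 73102), an orphan member, read 2.91, 0.37 and 0.38 in Ctrl and 0.17, 0.16 and 0.13 in Akk. It had no overlap with or without centring, and its log2 difference was -1.80 (SE 0.91, limma adjusted p = 0.487), -0.91 without Ctrl 1 and -0.88 after centring. Slc22a4 (Entrez 30805, chr 11, 53983115 to 54030040), OCTN1, the carrier of the antioxidant ergothioneine, was chosen after its values were seen. It read 0.24, 0.30 and 0.36 in Ctrl and 0.08, 0.18 and 0.08 in Akk, without overlap, with means of 0.300 ± 0.060 (SD, n = 3) and 0.113 ± 0.058 (SD, n = 3). Centring moved its log2 difference from -0.93 to -0.01, after which Ctrl 1 was the lowest library, and leaving Ctrl 1 out as well gave -0.79.

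Slc44a2, a choline transporter-like protein that carries the neutrophil antigen HNA-3, read 19.58, 4.10 and 2.60 in Ctrl and 3.14, 2.20 and 2.15 in Akk. Slc28a2, a sodium-coupled carrier of purine nucleosides, read 7.42, 0.87 and 0.81 in Ctrl and 0.60, 0.80 and 0.68 in Akk. Slc28a2 had no overlap by 1 step of rounding, and its log2 difference of -1.25 became -0.34 after centring and -0.25 without Ctrl 1. Slc44a2 overlapped as deposited and did not after centring.

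Slc35c2, of the nucleotide sugar family of the Golgi, read 3.70, 1.04 and 0.61 in Ctrl and 0.76, 0.38 and 0.52 in Akk. The 15 Slc35 genes, the largest family, had a median log2 difference of -0.82 and 1 gene without overlap, against 15.4% of the table. Slc52a3, a riboflavin transporter, had an unadjusted p under 0.05 at a very low level, with 0.39, 0.10 and 0.03 in Ctrl and 0.00, 0.03 and 0.02 in Akk. Its Akk 2 value equalled that of Ctrl 3. Slc46a3, a lysosomal member of the folate carrier family chosen after its values were seen, had no overlap, with 1.04, 0.36 and 0.28 in Ctrl and 0.23, 0.10 and 0.06 in Akk.

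After centring, the carriers without overlap on the lower side were Slc44a2, Slc35c2, Slc22a23, Slc12a9 and Slc2a3. Those on the higher side included Slc22a3, Slc35e3, Slc23a2, Slc35e4, Slc19a2, Slc5a6, Slc30a5, Slc39a10 and Slc2a9. These names follow from the counts and were chosen after the values were seen. Some lay near the floor, where the added 0.1 makes up most of the value and centring largely sets the order. Slc19a2 read 0.18, 0.02 and 0.01 in Ctrl and 0.06, 0.01 and 0.00 in Akk. Slc5a6 read 0.14, 0.04 and 0.00 in Ctrl and 0.04, 0.01 and 0.00 in Akk. As deposited none of the 10 had a higher mean in Akk. Slc39a10, a zinc importer, read 0.44, 0.04 and 0.02 in Ctrl and 0.10, 0.08 and 0.05 in Akk, and Slc30a5 read 1.52, 0.35 and 0.17 against 0.51, 0.23 and 0.23.

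With 3 mice per group no exact permutation test of a single carrier could go below 0.1, and depth cannot be read from the FPKM. Leaving out 1 library moved the count of carriers without overlap from 23 to 59 (without Ctrl 3) or 48 (without Akk 1). The table's share was not computed for these settings, and fewer libraries make an absence of overlap easier. The count of carriers at an unadjusted limma p under 0.05 moved from 5 to 28 without Ctrl 3, where the table's moved from 276 to 1610. Without Ctrl 2 it was 3, against 205 genes of the table. Without any 1 of the Akk libraries it was 0, against 54 to 89.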

How the data were processed

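Blood RNA of 3 control and 3 treated mice was sequenced on a BGISEQ-500 after oligo(dT) selection of mRNA. By the study's methods, the authors cleaned the reads, mapped them with HISAT2 and Bowtie2 and computed expression with RSEM, whereas the submitters' processing notes name TopHat2, Cufflinks and GRCm38. Whether the libraries kept strand is not given in the sources used here. The authors deposited FPKM for each library, rounded to 2 decimals, for genes they called different. The choice of genes fixes the direction of most differences, and depth is unknown.

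From the FPKM, log2(FPKM + 0.1) was compared between groups with limma 3.58.1 (R 4.3.3) using an intensity trend and no scaling between libraries, over all 8003 genes of the blood table with Benjamini-Hochberg adjustment. Genes were called when they differed 1.5-fold or more with an adjusted p no higher than 0.05. Groups were taken from the labels, and p-values measure the spread between libraries of separate mice. Members, substrate groups and lists were chosen with earlier results of these data known.

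Carriers were named when they were among the 6 highest by mean FPKM of a substrate group with a mean of at least 1 (the 4 highest of the further group), had an unadjusted p under 0.05, were among the 8 largest differences without overlap at a mean of at least 0.5, had a higher mean in Akk (none did), or were in the hippocampal table. Positions came from RefSeq and exon overlaps from GENCODE, on which all 117 members matched. Alternatives were pseudocounts of 1 and 0.01, a mean FPKM of at least 1, centring on the library median, no trend, the replicate number as a block, each library left out in turn, and centring without Ctrl 1. Tables and figures were made in Python 3.11.15 with pandas 2.3.3, numpy 2.4.6 and matplotlib 3.10.9. Some results are not reported here.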

Additional observations from a re-analysis of the deposited data

How the results depend on the processing

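No carrier passed the thresholds in any of the 14 limma fits, in which the whole table gave 0 to 23 calls. The count at an unadjusted p under 0.05 was 5 and became 2 with a pseudocount of 1, 1 where genes under a mean FPKM of 1 were left out, 11 with the replicate block, 9 when libraries were centred and Ctrl 1 left out, and 0 to 28 when 1 library was left out. With 1 library left out, the table's count at that p went from 276 to between 54 and 1610. The count of carriers without overlap was 23 and became 5 after centring, 5 at a mean FPKM of at least 1, 11 when centred without Ctrl 1, and 23 to 59 with 1 library left out. The table's share was 15.4%, and became 4.44% after centring and 15.6% without Ctrl 1. It was not computed for the other settings named here. The filter at 1 FPKM left 19 carriers. The cause of the other changes was not tested.

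Centring, and centring without Ctrl 1, turned the medians of all carriers (0.11 and 0.063), sugar (0.15 and 0.11), amino acid (0.15 and 0.14), monocarboxylate (0.20 and 0.22), metal (0.041 and 0.031), ion (0.12 and 0.019) and further carriers (0.090 and 0.056) above 0. The monocarboxylate median was -1.52 with a pseudocount of 0.01. Both settings also turned Slc16a3 (0.20 and 0.61), Slc2a6 (0.12 and 0.26), Slc39a7 (0.18 and 0.34) and Slc6a6 (0.038 and 0.35). Centring alone turned Slc39a4 (0.055), and centring without Ctrl 1 turned Slc11a1 (0.031), Slc24a3 (0.22) and Slc39a1 (0.16). With 1 library left out, log2 differences ran from -1.34 to 0.36 for Slc16a3, -1.30 to 0.015 for Slc2a6, -1.36 to 0.093 for Slc39a7 and -1.38 to 0.097 for Slc6a6, above 0 only without Ctrl 1. Of the other values, 266 for named carriers kept their direction and their side of the threshold. Another 105 were counts that stayed within 1.5-fold or medians that kept their sign and moved by less than 0.80. That margin is the SD of the carriers' library medians within groups, and it is wide. Without Ctrl 1 the median of all carriers shrank from -0.80 to -0.19 and that of the monocarboxylate carriers from -0.71 to -0.028.

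The replicate numbers of Ctrl and Akk name different mice. Deviations of libraries with the same number correlated at 0.036, -0.011 and -0.096 over genes, so the numbers do not pair them, and not every library correlated best with its own number. Depth is unknown, and FPKM values of a few hundredths are near the rounding step.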
